A study of Mus musculus with 8 samples.

Results

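NFIB-depleted mesenchymal stem cells were compared with control cells at day 5 of adipogenic differentiation, gene by gene. The comparison used 2 of the 8 RNA-seq libraries of the study, 1 for shNFIB cells and 1 for shControl cells. Of the 41325 gene symbols that the libraries list, 11056 had an RPKM (reads normalised to exon length and to the mapped reads of the library) over 1 in at least 1 of these 2 libraries, and all of them were kept. The study asked whether the histone demethylase KDM4D, the transcription factor NFIB and the histone methyltransferase MLL1 act on the same genes when C3H10T1/2 cells, a mouse mesenchymal stem cell line, are turned into fat cells. Control cells (shControl, genotype WT in the labels) and shKDM4D, shNFIB and shMLL1 knockdown cells were each collected at day 0, before induction, and at day 5 after induction with insulin, dexamethasone and isobutylmethylxanthine (MDI). The knockdown cells carried a stable shRNA in the pLKO.1 vector and came from puromycin-resistant clones, and neither the labels nor the methods say which clone was sequenced or what the control cells carried. Each condition has 1 library, so the shRNA, the clone and the culture cannot be told apart, and no p-value is given.

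NFIB belongs to the nuclear factor I family, whose members bind DNA as dimers and take part in opening and marking regulatory regions. In fat cell formation, MDI first induces the early factors C/EBPβ and C/EBPδ, which turn on PPARγ and C/EBPα. These then drive the genes for fat uptake, triglyceride storage and the fat cell hormones.

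*Nfib* itself (chromosome 4 of GRCm38, from 82290173 to 82705750, minus strand) was covered by 801 reads in shNFIB cells and 4922 reads in shControl cells at day 5, which is 5.04-fold lower per length and depth (RPKM 3.38 against 17.0). At day 0 the values were 2.31 and 9.92. The other members of the family were *Nfia* (2.65 in shNFIB and 4.86 in shControl cells at day 5), *Nfic* (41.9 and 42.7) and *Nfix* (39.4 and 46.2). *Nfib* was the only one of the 4 beyond 2-fold, also after either of the other scalings tried. The other targets of the study were within 2-fold. *Kmt2a*, which encodes MLL1, had an RPKM of 3.74 in shNFIB and 5.27 in shControl cells, and *Ash2l*, a subunit of its complex, had 7.26 and 6.30. A difference in *Kdm4d* was not detectable at this depth, with 7 and 13 reads (log2 ratio of the RPKM values −0.61, 95% interval −2.17 to 0.83). None of the 14 measured members of the MLL complexes and the KDM4 family was called. *Gapdh* had an RPKM of 235 and 243.

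The depth recovered from the RPKM values was 1.58e+07 mapped reads in the shNFIB library and 1.93e+07 in the shControl library at day 5, within a range of 1.58e+07 to 3.82e+07 over the 8 libraries. At the lower depth, 3 reads on a gene with 1 kb of exons correspond to an RPKM of 0.189. The rRNA-like genes AY036118 and CT010467.1 together took 3.62% and 3.14% of the reads of the 2 day 5 libraries, against 7.95% to 10.5% in the day 0 libraries.

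A gene was called lower or higher when log2 of the (RPKM + 0.1) ratio of shNFIB to shControl cells was beyond 1, that is 2-fold. At day 5, 581 genes (5.26%) were lower, 511 (4.62%) were higher and 9964 were neither. The median log2 ratio was 0.09, with quartiles of −0.23 and 0.37. Among the called genes, 104 were lower and 42 were higher by more than 8-fold. A total of 826 genes were over an RPKM of 1 in only 1 of the 2 libraries and could enter only through their higher value, and 257 of them were called lower and 195 higher. Of the 10230 genes over 1 in both libraries, 324 (3.17%) were lower and 316 (3.09%) were higher. Calls were more frequent among weakly expressed genes, with 9.22% lower and 10.1% higher where the higher RPKM was between 1 and 2, against 3.73% and 3.32% where it was between 5 and 10. Over an RPKM of 50 the shares were 5.39% and 3.70%, so lower calls did not decline steadily with the level. The exact 95% counting interval of the RPKM ratio left out 1 for 574 of the 580 lower genes and 496 of the 505 higher genes with a gene model. This interval covers counting error only, and PCR duplicates make it too narrow. In the plot of RPKM values, *Fabp4*, *Adipoq* and *Cidec* of the fat cell lie far below the diagonal, and *Ifit1*, *Isg15* and *Bst2* of the interferon response lie far above it. *Fabp4* had 27 reads in shNFIB and 24004 in shControl cells, *Adipoq* 5 and 6892, and *Cidec* 2 and 4953.

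**Figure D1:**
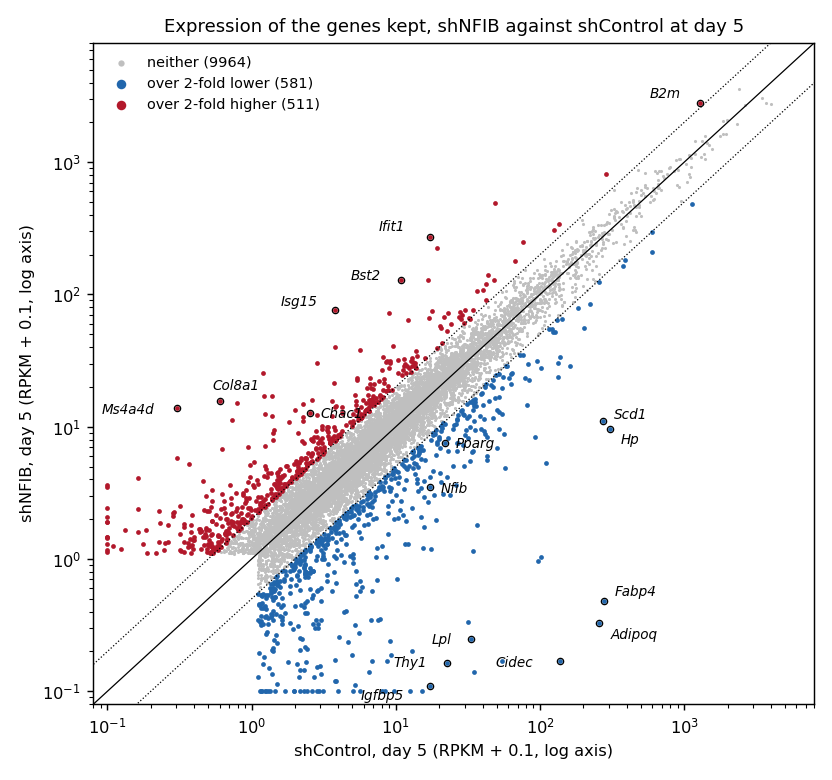
Each point is 1 of the 11056 genes kept, with the shControl RPKM at day 5 on the x axis and the shNFIB RPKM on the y axis, both plus 0.1 on log axes; the solid line marks equal values and the dotted lines 2-fold. *Nfib* and *Pparg* lie below the lower dotted line, *Fabp4*, *Adipoq* and *Cidec* lie at the bottom right, and *Ifit1*, *Isg15* and *Bst2* lie above the upper dotted line.

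Among the transcription factors that promote fat cell formation, 6 of the 18 measured were lower and 1 was higher (median log2 ratio −0.60, against 0.09 over all genes kept). The shares over all genes kept were 5.26% lower and 4.62% higher. Of the 16 factors over an RPKM of 1 in both libraries, 4 were lower and 1 was higher, so some of the 6 passed the filter only through shControl cells. The 6 lower factors were *Nr1h3*, *Cebpa*, *Klf15*, *Pparg*, *Nr4a1* and *Ebf1*. *Nr1h3* encodes LXRα, a sterol-sensing nuclear receptor, and had an RPKM of 0.201 in shNFIB and 2.63 in shControl cells. *Cebpa* had 3.66 and 14.0, and *Pparg* had 7.48 and 21.7. Both had been closer before induction, at 1.22 and 2.05 for *Cebpa* and 6.02 and 8.20 for *Pparg*. The early factors differed little at day 5: *Cebpb* had an RPKM of 39.5 in shNFIB and 49.3 in shControl cells, and *Cebpd* had 47.8 and 48.1. The glucocorticoid receptor gene *Nr3c1* had 20.7 and 21.1. *Klf4*, an early factor of the programme, was the higher member at 65.8 against 32.0 (log2 ratio 1.04), and it was not called after quantile normalization or median-of-ratios scaling. Of the 15 measured factors that restrain fat cell formation, 2 were lower and 1 was higher. Among the 14 over an RPKM of 1 in both libraries, 1 was lower and 1 higher. *Dlk1*, which encodes the preadipocyte protein PREF-1, had 1 read in shNFIB and 557 reads in shControl cells. *Zfp521*, a repressor of EBF1, was also lower (4.94 against 12.2), and the Notch target *Hes1* was higher (15.5 against 5.16). Fewer fat cells and less RNA of these genes per cell cannot be told apart in these bulk samples.

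Of the 47 gene lists examined, the genes that take up, bind and release fatty acids had the lowest median. Of 13 measured members of that list, 9 were lower and 1 was higher, with a median log2 ratio of −3.69. Of the 19 genes of fatty acid and triglyceride synthesis, 10 were lower (median −1.07), and 4 of the 9 genes of the lipid droplet coat were lower (median −0.91). None was higher in these last 2 lists. Since some of these genes passed the filter only through shControl cells, the same counts over genes above an RPKM of 1 in both libraries were 5 of 9, 8 of 17 and 2 of 7.

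*Scd1*, the stearoyl-CoA desaturase (chromosome 19, from 44394455 to 44407879), was 24.8-fold lower, with an RPKM of 10.99 in shNFIB and 272 in shControl cells. Before induction the values were 8.80 and 27.0, and day 5 gave 21.99 in shKDM4D and 13.4 in shMLL1 cells at day 5. *Pnpla2*, the triglyceride lipase ATGL, was 20.97-fold lower (5.20 against 109), and *Lipe*, hormone-sensitive lipase, was 14.0-fold lower (1.10 against 15.4). The genes for both lipases therefore differed in the same direction as those for synthesis. *Acsl1*, which activates fatty acids, had 1.72 against 36.4. *Cd36*, a fatty acid transporter, had 0.0879 against 4.84. *Agpat2* and *Dgat2*, which add the second and the last acyl chain of triglyceride, had 6.85 against 50.5 and 4.93 against 24.8. *Pcx*, pyruvate carboxylase, had 8.64 against 56.3. Other members were within 2-fold, among them *Acaca* (6.63 and 7.84), *Acly* (27.2 and 24.8), *Me1* (21.2 and 26.4) and *Scd2* (123 and 108). *Fasn* was called narrowly, at 14.8 against 31.2 (log2 ratio −1.07). The droplet coat genes *Plin2* (35.6 and 62.2) and *Plin3* (23.4 and 29.6), which many cell types use, were not called, whereas *Plin4* (16.7 against 52.0) was. The higher member was *Acsl3* (18.7 against 7.99), an acyl-CoA synthetase.

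**Figure D2:**
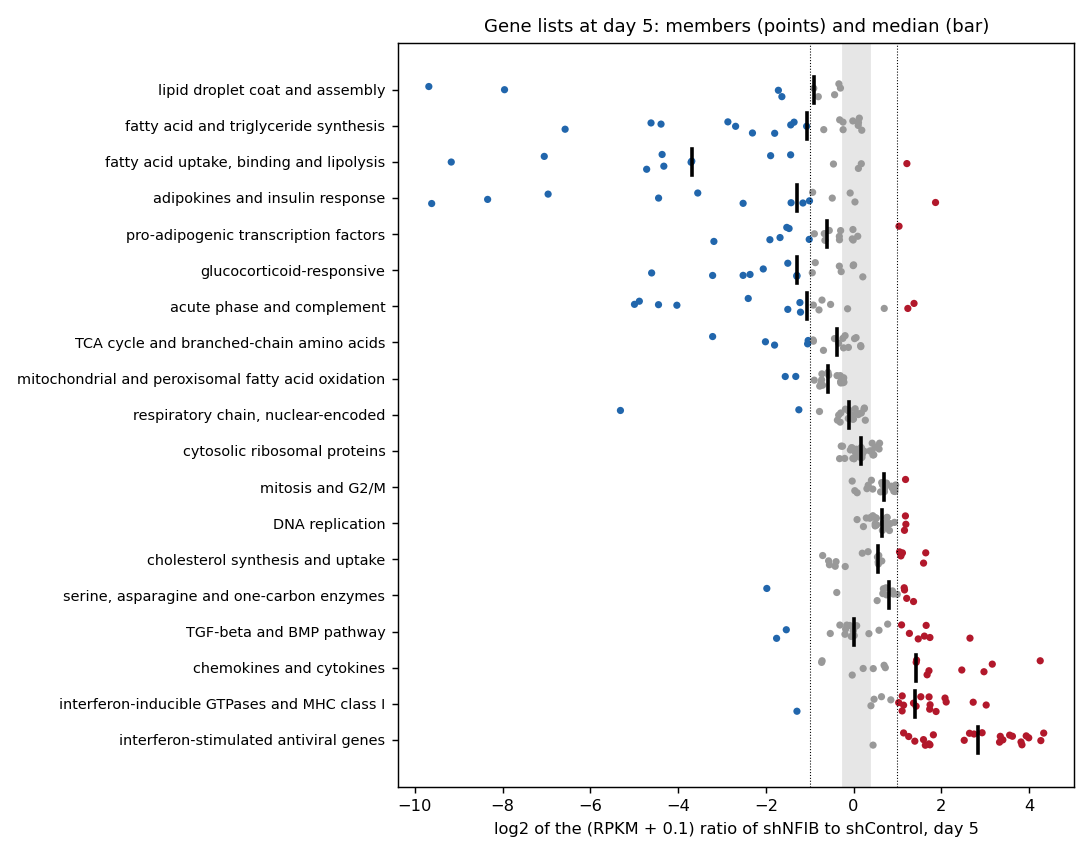
Each point is a measured member of the gene list named on the y axis, placed by its log2 (RPKM + 0.1) ratio of shNFIB to shControl cells at day 5 (x axis); blue points are over 2-fold lower and red points over 2-fold higher, black bars are list medians and the grey band holds the middle 50% of all genes kept. The medians run from −3.69 for fatty acid uptake, binding and lipolysis to 2.84 for the antiviral genes.

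Of 14 measured genes of adipokines and the insulin response, 9 were lower and 1 was higher (median −1.29; 4 of 9 lower among genes over 1 in both libraries). *Retn*, the gene of the hormone resistin, had 0 reads in shNFIB and 378 reads in shControl cells, at least 103-fold lower against a floor of 3 reads in the shNFIB library. *Slc2a4*, the insulin-sensitive glucose transporter GLUT4, had 4 reads against 246. *Adipor2*, an adiponectin receptor, was lower (11.9 against 32.2), and *Adipor1* was not (25.4 against 26.8). *Cav1*, the main caveolar coat gene, lay at the 2-fold limit (20.8 against 41.9, log2 ratio −1.004). The insulin receptor gene *Insr* had 3.32 and 4.69, and *Irs1* had 14.0 and 13.7. *Igf1*, insulin-like growth factor 1, was the higher member, with an RPKM of 30.9 in shNFIB and 8.38 in shControl cells (3.69-fold), against 12.5 in shKDM4D and 3.14 in shMLL1 cells.

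Several large differences were in genes outside the lipid pathways, most of them for secreted proteins. *Agt*, which encodes angiotensinogen, had an RPKM of 0.868 in shNFIB and 96.4 in shControl cells, and *Cyp2f2*, a cytochrome P450 gene, had 0.935 and 102. Both were 0.0397 or less in all day 0 libraries. *Igfbp5*, a binding protein of insulin-like growth factors, had 1 read in shNFIB and 1980 reads in shControl cells. *Igfbp3* had 1 read against 228, and *Igfbp4* was also lower (11.6 against 31.0). *Igfbp7* had 366 against 196 and stayed within 2-fold. Of 16 measured acute phase and complement genes, 8 were lower and 2 were higher (median −1.06). *Orm1* and *Orm2* encode similar acute phase proteins and may share reads. *Orm1* had 1.06 against 34.1 and *Orm2* 0.244 against 7.41. *Hp* had 9.43 against 304. *Steap4* (2.34 against 12.8), *Lcn2* (15.6 against 44.3) and ceruloplasmin, *Cp* (15.2 against 35.6), were lower as well. *C3*, the most abundant member, had 507 against 956 and was not called. The higher members were *Saa3* (3.83 against 1.41) and *Cfb* (7.999 against 3.33).

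Mitochondrial genes differed less. For comparison, 5.26% of all genes kept were lower and 4.62% higher. Of 18 genes of the TCA cycle and branched-chain amino acid breakdown, 5 were lower and 0 higher (median −0.39). Those named by size were *Pdk4* (1.205 against 11.99), *Aldh6a1* (3.81 against 15.6), *Bcat2* (8.58 against 30.1) and *Bckdha* (8.81 against 18.1). *Pdk4* encodes a kinase that holds back pyruvate oxidation, and the other 3 take part in branched-chain amino acid or valine breakdown. Fatty acid oxidation had 2 of 18 lower, *Acadm* (16.4 against 48.5) and *Cpt2* (7.95 against 19.9), with a median of −0.57. These are few calls to set against the share of all genes kept. Of 21 nuclear-encoded genes of the respiratory chain, 2 were lower, *Cox8b* and *Cox7a1*, both isoforms of muscle and brown fat and both on few reads (0 against 27, and 4 against 13). The median of that list was −0.10, and the abundant *Cox4i1* (115 against 198) and *Cox8a* (498 against 440) were within 2-fold. Only 5 of 16 brown and beige fat genes were measured, and 3 were lower: these 2 and *Ppargc1b* (17 reads against 89). All 3 passed the filter only through shControl cells, and over genes above an RPKM of 1 in both libraries 0 of 2 brown fat genes and 0 of 19 respiratory chain genes were lower. *Ppargc1a* had 1.83 and 2.00.

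Dexamethasone, a synthetic glucocorticoid, was part of the induction medium. The methods give it only until day 2, so the cells collected at day 5 were no longer in dexamethasone. At day 5, 8 of 15 measured glucocorticoid-responsive genes were lower in shNFIB cells, with 0 higher (median −1.29). At day 0, 0 of these 15 were lower and 2 were higher, *Dusp1* and *Cebpd*, where 4.11% of all genes kept were lower and 1.95% higher. *Fkbp5*, a co-chaperone of the glucocorticoid receptor, had 4.03 in shNFIB and 17.1 in shControl cells at day 5. *Errfi1*, an inhibitor of the EGF receptor, had 8.30 against 43.0. *Zbtb16* had 0 reads against 238. *Sgk1* (3.97 against 9.84) and *Mt1* (51.7 against 127) were also lower, whereas *Tsc22d3* (13.3 and 16.2), *Dusp1* (8.64 and 7.44) and *Ddit4* (24.7 and 24.6) were within 2-fold. *Angptl4*, *Pdk4* and *Lcn2*, which are among the 8, are also counted in the lists above. The values at day 5 in the other knockdown cells differed between these genes: *Fkbp5* had 5.48 in shKDM4D and 20.9 in shMLL1 cells, and *Errfi1* had 21.1 and 30.1.

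The highest median of the 47 lists belonged to the interferon response, by which cells that detect virus or interferon raise antiviral proteins. Of the 24 measured antiviral genes of the list, 23 were higher in shNFIB cells at day 5 and 0 were lower (median log2 ratio 2.84). The exception was *Ifih1* (1.18 against 0.836). Of the 20 measured genes for interferon-inducible GTPases and MHC class I presentation, 15 were higher and 1, *Gbp4*, was lower (median 1.40). Over genes above an RPKM of 1 in both libraries, 19 of 19 and 12 of 16 were higher. The summed RPKM of the antiviral list was 1450 in shNFIB and 181 in shControl cells at day 5, and 77.8 and 119 at day 0.

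By role, the genes of direct antiviral proteins come first. *Isg15*, a ubiquitin-like modifier (chromosome 4, from 156199424 to 156200818, minus strand), had an RPKM of 76.6 in shNFIB and 3.70 in shControl cells, a 20.7-fold difference. *Ifit1*, which binds foreign RNA (chromosome 19, from 34640871 to 34650009), had 273 against 17.0, and *Ifit3*, its partner (chromosome 19, from 34583531 to 34588731), had 489 against 48.5. *Ifit3* and *Ifit3b* (128 against 16.7) are near-identical copies, and the split of reads between them is uncertain. *Bst2*, which tethers virus particles (chromosome 8, from 71534255 to 71537456, minus strand), had 127 against 10.7. These regulators of the response were higher too, by smaller ratios than those 4 genes: *Stat2* (23.3 against 6.54), *Irf9* (26.7 against 7.91) and *Irf7* (13.3 against 1.89). *Usp18*, a brake on interferon receptor signalling that removes ISG15, had 17.0 against 1.11. In antigen presentation, *B2m*, the common light chain of MHC class I, had 2783 against 1291, and *H2-K1* had 128 against 47.6. The peptide transporter gene *Tap1* had 7.49 against 2.20. Among the GTPases, *Gbp3* had 72.7 against 8.84, *Irgm2* had 15.5 against 3.52, and the close paralogs *Tgtp1* and *Tgtp2*, which may share reads, had 9.34 against 1.32 and 25.6 against 1.09.

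To show the regulatory sequence next to these values, promoters of the interferon group are printed below from the RefSeq promoter table of GRCm38.p6, 5′ to 3′ on the strand of the gene. Capitals mark the core of the interferon-stimulated response element, GAAANNGAAA on either strand, where neighbouring matches may overlap. Each stretch lies before the annotated gene. It begins 126 bases before the RefSeq start of *Isg15*, 145 before that of *Ifit1*, 182 before that of *Ifit3* and 184 before that of *Bst2*.
Isg15, chr4:156200825-156200944, minus strand: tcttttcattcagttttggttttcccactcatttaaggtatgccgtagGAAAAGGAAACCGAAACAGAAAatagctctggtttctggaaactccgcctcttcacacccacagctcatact
Ifit1, chr19:34640744-34640863, plus strand: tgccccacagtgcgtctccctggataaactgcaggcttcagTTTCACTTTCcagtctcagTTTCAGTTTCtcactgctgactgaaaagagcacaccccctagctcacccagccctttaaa
Ifit3, chr19:34583347-34583466, plus strand: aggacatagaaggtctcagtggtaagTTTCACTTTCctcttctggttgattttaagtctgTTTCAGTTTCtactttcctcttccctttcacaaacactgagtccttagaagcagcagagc
Bst2, chr8:71537537-71537656, minus strand: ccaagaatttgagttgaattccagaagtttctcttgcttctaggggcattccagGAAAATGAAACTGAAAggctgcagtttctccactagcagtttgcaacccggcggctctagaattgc

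*Isg15* carried 3 overlapping matches, and *Ifit1*, *Ifit3* and *Bst2* carried 2 each. In windows from 250 bases before to 50 after the start, the core was found for 9 of the 15 antiviral genes with a promoter entry (60.0%) and 9 of the 17 GTPase and MHC genes (52.9%). It was found for 49 of 342 higher genes with an entry (14.3%), 15 of 398 lower genes (3.77%), 322 of 8568 genes kept (3.76%) and 1079 of all 27025 genes in the table (3.99%). The shares describe these letters in these windows and do not show binding. The full NFI palindrome, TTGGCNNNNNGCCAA, was found for 1 of the 398 lower genes, 0 of the 342 higher genes and 3 of the 8568 genes kept. The element of PPAR and RXR, AGGTCA repeated after 1 base, was found for 0 lower, 0 higher and 3 of the genes kept.

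Before induction the antiviral genes did not stand higher. At day 0, 12 of the 24 antiviral genes were more than 2-fold lower in shNFIB than in shControl cells and 0 were higher, with a median log2 ratio of −0.98. Of the 20 GTPase and MHC genes, 3 were lower and 0 higher. *Tgtp2*, which is outside both lists, was an exception and was already higher at day 0 (2.08 against 0.818). *Isg15* went from an RPKM of 0.213 at day 0 to 76.6 at day 5 in shNFIB cells, and from 1.54 to 3.70 in shControl cells. *Ifit1* went from 3.61 to 273 and from 11.3 to 17.0. The other knockdown cells stood on both sides at day 5: *Isg15* was 1.90 in shKDM4D and 192 in shMLL1 cells, and *Ifit1* was 13.5 and 386. The median log2 ratio of the antiviral list to the same shControl library was −0.54 in shKDM4D and 4.35 in shMLL1 cells, and that of the GTPase and MHC list was −0.56 and 2.96. The level in the shNFIB library was thus above shControl and below shMLL1 for *Isg15*, *Ifit1*, *Ifit3*, *Bst2* and *B2m*. These comparisons share the shControl library, and the part of the vector, clone or culture in them was not tested.

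Chemokines and cytokines, the signals that call in immune cells, had 8 of 15 measured genes higher and 0 lower (median 1.43; 4 of 10 among genes over 1 in both libraries). *Ccl2* had an RPKM of 249 in shNFIB and 75.6 in shControl cells, and *Ccl7* had 109 and 40.0. For these neighbouring chemokine genes the difference was there at day 0 (186 against 75.7 for *Ccl2*, 93.6 against 39.6 for *Ccl7*). *Cxcl1*, which attracts neutrophils, had 140 against 43.8 at day 5 and 32.0 against 22.9 at day 0. *Cxcl10*, itself interferon-inducible, was present at 2.13 against 0.184. *Ccl8* had 46 reads against 2. *Cxcl12*, the most abundant chemokine, was within 2-fold (254 against 418).

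The factor ATF4 switches on genes of the amino acid response when amino acids run short or the endoplasmic reticulum is stressed. The medians of the ATF4 and serine lists had opposite signs at the 2 days. At day 5 the median log2 ratio was 0.38 for the 12 measured ATF4 and CHOP targets (2 higher, 0 lower). It was 0.82 for the 14 genes of serine, asparagine and one-carbon metabolism (4 higher, 1 lower). Of all genes kept, 5.26% were lower and 4.62% higher at day 5, and 4.11% lower and 1.95% higher at day 0. The ATF4 median at day 5 was near the upper quartile of all genes kept, 0.37, and rested on few calls. At day 0 the medians were −1.13 and −1.26, with 7 of 12 and 11 of 14 lower. For *Asns*, asparagine synthetase, the RPKM went from 70.4 at day 0 to 12.8 at day 5 in shControl cells, and from 24.7 to 33.1 in shNFIB cells. *Psat1*, an enzyme of serine synthesis, went from 77.3 to 13.1 and from 33.8 to 30.6. *Shmt2*, which passes on 1 carbon of serine in mitochondria, went from 69.6 to 10.9 and from 29.1 to 24.3. These 3 enzyme genes had their high level at day 0 in shControl cells and a flatter course in shNFIB cells. The day 5 medians of the ATF4 and serine lists against shControl were 0.79 and 0.83 in shMLL1 cells. In shKDM4D cells they were 0.04 and 0.41. The 8 measured amino acid transporters were divided at day 5, with 2 higher, 2 lower and a median of −0.11, and 4 were lower at day 0. The higher ones were *Slc7a5*, the catalytic subunit of the leucine transporter LAT1 (31.4 against 9.03), and *Slc7a1* (3.78 against 1.74), and the lower ones were *Slc1a5*, a glutamine transporter (2.42 against 8.79), and *Slc38a1* (0.989 against 2.16). *Phgdh*, the first enzyme of serine synthesis, fell just short of the limit at day 5 (57.3 against 28.7). The lower gene of the serine list at day 5 was *Gpt2*, alanine aminotransferase (4.50 against 18.0). None of the 20 aminoacyl-tRNA synthetases was called at day 5 (median 0.39), and 5 were lower at day 0 (median −0.76).

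The core of the amino acid response element, TGATGNAA on either strand, was found in the promoter window of 5 of 11 ATF4 and CHOP targets (45.5%), 5 of 12 aminoacyl-tRNA synthetases (41.7%) and 2 of 12 serine and one-carbon genes (16.7%). Its share was 5.56% of the higher genes, 3.02% of the lower genes, 2.53% of the genes kept and 4.51% of all genes in the table. *Chac1*, a glutathione-degrading enzyme gene with 12.7 in shNFIB and 2.43 in shControl cells at day 5, and 3.44 and 21.7 at day 0, is printed as the example, from 250 bases before its start, with the match on the opposite strand in capitals.
Chac1, chr2:119350992-119351111, plus strand: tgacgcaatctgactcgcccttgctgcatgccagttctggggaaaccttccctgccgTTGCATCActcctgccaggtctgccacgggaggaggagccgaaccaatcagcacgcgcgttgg

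Cholesterol genes showed the same turn on a smaller scale. Of 18 measured genes of cholesterol synthesis and uptake, 5 were higher and 0 lower at day 5 (median 0.55), and 4 were lower at day 0 (median −0.78). *Sqle*, squalene epoxidase, had 8.33 in shNFIB and 2.59 in shControl cells at day 5, and 13.9 and 20.7 at day 0. *Hmgcs1*, the most abundant member, had 24.1 and 27.5. Median-of-ratios scaling left 3 of the 5 calls, and a pseudocount of 1 or a mean RPKM over 5 left 2.

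Growth genes leaned upward without passing 2-fold in most cases. The median log2 ratio was 0.69 over 22 mitosis genes (1 higher) and 0.66 over 23 DNA replication genes (3 higher), against 0.09 over all genes kept, and 0 genes were lower in either list. The shares over all genes kept were 4.62% higher and 5.26% lower, so the growth lists had few calls to set against them. *Aurka*, a spindle kinase, had 15.6 in shNFIB and 6.81 in shControl cells. *Rrm2*, which makes deoxynucleotides, had 27.9 and 12.2, and *Top2a* had 56.5 and 36.2. For mitosis genes the difference was similar at day 0 (median 0.66), and for DNA replication it was not (median −0.03). Summed over the mitosis list, RPKM went from 691 to 295 in shControl cells and from 1091 to 448 in shNFIB cells between the days. Ribosome biogenesis had a median of 0.54 with 2 of 20 higher, *Nop56* (28.9 against 13.5) and *Fbl* (13.1 against 6.37), and either of the other scalings left 1 of them. None of the 28 cytosolic ribosomal protein genes was called (median 0.17). Of the cell cycle inhibitors and p53 targets, 2 of 17 were lower, *Sesn1* (10.2 against 20.9) and *Perp* (0.388 against 1.30), and 0 higher. The p53 target *Cdkn1a* had 44.6 against 27.6.

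Matrix and signalling genes differed in both directions. Over all genes kept, 5.26% were lower and 4.62% higher. Of 16 collagens, 2 were lower and 1 was higher (median −0.06), which is few calls to set against these shares. Among the 15 collagens over an RPKM of 1 in both libraries, 2 were lower and 0 higher. *Col18a1* had 1.205 in shNFIB and 11.5 in shControl cells, *Col15a1* had 17.7 and 38.9, and *Col8a1*, a short-chain collagen, had 15.5 and 0.502. *Col8a1* was 11.3 and 7.62 at day 0, so that the day 5 difference came with a drop in shControl cells. *Col1a1*, the most abundant collagen gene, had 859 and 688. Of 22 other matrix genes, 4 were lower, with *Vcan* (31.2 against 94.6), *Fn1* (183 against 385), *Ogn* (298 against 600) and *Fbln1* (0.347 against 2.11). The 5 higher ones were *Thbs1*, *Ctgf*, *Fbln5*, *Tnc* and *Fmod*. *Thbs1*, thrombospondin 1, had 40.7 against 9.52 at day 5 and 98.5 against 15.2 at day 0.

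In the TGF-β and BMP pathway, 6 of 23 measured genes were higher and 1 lower at day 0 (median 0.46). The day 0 shares over all genes kept were 1.95% higher and 4.11% lower. At day 5, 7 of the 23 were higher and 2 lower, with a median of 0.02, where the shares were 4.62% and 5.26%. Of the ligands, *Inhba*, which makes activin A, had 8.79 in shNFIB and 1.31 in shControl cells, *Bmp4* had 72.7 and 23.0, and *Tgfb2* had 19.1 and 6.81. *Tgfb1* (2.42 and 2.70) and *Tgfb3* (16.03 and 15.9) were within 2-fold. The signalling receptors *Tgfbr1* (7.61 and 7.59), *Tgfbr2* (41.4 and 39.3) and *Bmpr1a* (36.7 and 36.8) were nearly equal, and the co-receptor *Tgfbr3* was lower (4.85 against 14.2). Of the targets, *Smad6* (9.20 against 2.68) and *Id2* (26.9 against 11.1) were higher, and *Tgfbi* was lower (3.28 against 11.3). Among 13 Wnt genes, 2 were higher and 2 lower at day 5, which is few calls to set against the day 5 shares. *Sfrp1*, which binds Wnt ligands, had 17.1 against 5.12, the receptor gene *Fzd8* had 14.5 against 6.68, and the nuclear factor *Lef1* had 0.453 against 1.44.

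Other lists had few calls, and several were near the 5.26% lower and 4.62% higher of all genes kept. Immediate early and AP-1 factors had 3 of 17 lower and 0 higher, with *Egr1* at 14.3 against 35.8. Genes of glycolysis and the hypoxia response had 3 of 20 lower, with *Adm* at 13.3 against 34.3, *Bnip3* at 54.3 against 121 and *Car9* on 9 reads against 121, whereas *Pgk1* had 344 against 287. NRF2 antioxidant genes had 2 of 15 lower, *Gstm1* (55.8 against 202) and *Nqo1* (24.6 against 49.7). Endoplasmic reticulum chaperones had 1 of 19 lower, *Dnajb9* (16.1 against 35.2). Of the imprinted genes, 3 of 9 were lower, and the long non-coding *H19* had 4 reads against 615. All 3 passed the filter only through shControl cells, and 0 of the 6 imprinted genes above an RPKM of 1 in both libraries were lower. Of the matrix proteases and inhibitors, 1 of 14 was lower, *Adamts9* (0.407 against 2.52). Among the contractile genes 1 of 11 was lower, *Lmod1* (5.08 against 13.8), and *Acta2* had 878 against 478. YAP and TAZ targets had 2 of 15 higher, including *Ankrd1* (2.04 against 0.469), and 1 lower. The 6 measured bone and cartilage genes split into 2 lower, including *Spp1* (84.9 against 221), and 1 higher, *Col2a1* (7.48 against 2.99).

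The day 0 libraries of the same cells share no library with the day 5 comparison. Among the same 11056 genes, 454 (4.11%) were lower and 216 (1.95%) were higher in shNFIB cells before induction. Of the 581 genes lower at day 5, 184 (31.7%) were already lower at day 0, 12 (2.07%) were higher and 385 were neither, and their median log2 ratio at day 0 was −0.60. Of the 511 genes higher at day 5, 104 (20.4%) were already higher, 45 (8.81%) were lower and 362 were neither, with a median of 0.34. In the fat cell lists, 1 of 19 genes of fatty acid and triglyceride synthesis, 1 of 13 of uptake and lipolysis, 2 of 9 of the droplet coat and 0 of 14 of the adipokines were lower at day 0. Their medians at day 0 were −0.03, −0.13, −0.45 and 0.06.

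**Figure D3:**
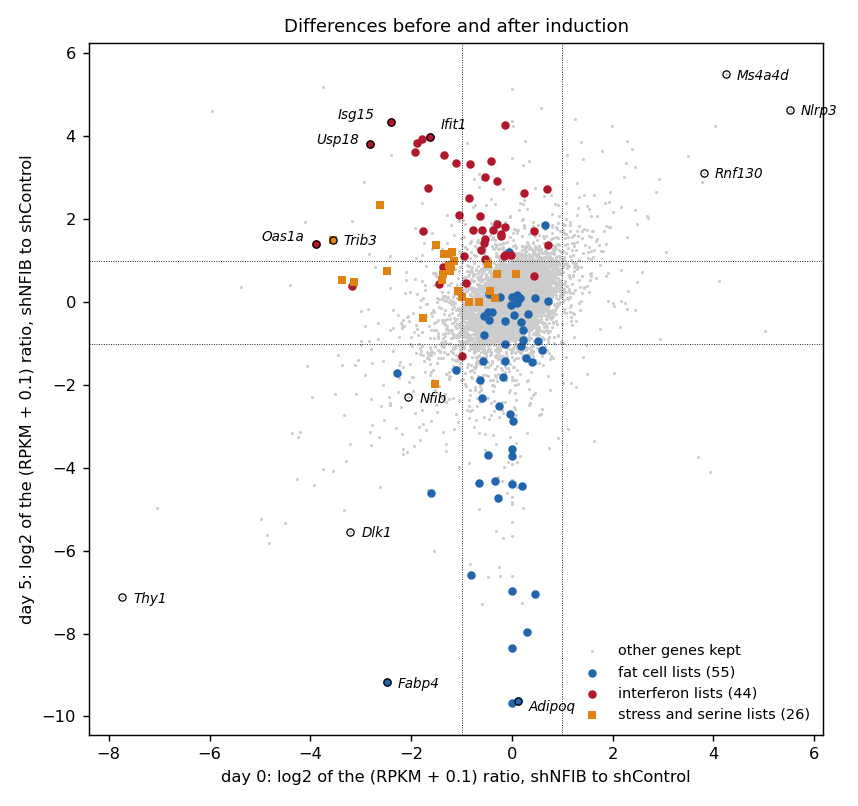
Each point is a gene kept, with its log2 (RPKM + 0.1) ratio of shNFIB to shControl cells at day 0 on the x axis and at day 5 on the y axis, and dotted lines at 2-fold. Members of the 4 fat cell lists (blue) spread downward near 0 on the x axis, the interferon lists (red) and the ATF4 and serine lists (orange) lie mostly at the upper left, and *Thy1* and *Dlk1* lie far down on both axes.

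A small set of genes differed by more than 8-fold in the same direction on both days, 17 lower and 6 higher. The lower genes included *Thy1*, *Ces2g*, *Dlk1*, *Arhgap28*, *Col8a2*, *Igfbp3*, *Aim2*, *Serping1* and *Col18a1*. *Thy1*, a surface glycoprotein used as a mesenchymal marker (chromosome 9, from 44043384 to 44048579), had an RPKM of 25.01 at day 0 and 22.6 at day 5 in shControl cells. In shNFIB cells it had 0.0179 and 0.0632, on 3 reads at day 5. The shKDM4D libraries gave 0.0171 and 0.139, and shMLL1 cells gave 11.8 and 11.1. The low level of *Thy1* is thus found in shNFIB and shKDM4D cells at both days. *Arhgap28* had 2.60 and 6.71 in shControl cells and 0.0199 and 0.0704 in shNFIB cells, against 1.43 and 6.11 in shKDM4D cells. *Col8a2* had 4.53 and 9.04 in shControl cells and 0.0477 and 0.141 in shNFIB cells, against 2.82 and 9.03 in shKDM4D and 0.0758 and 0.760 in shMLL1 cells. The members of this set therefore differ in which other knockdown cells share the low level.

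The 6 genes higher on both days were *Rnf130*, *Il6*, *Rims2*, *Snord82*, *Nlrp3* and *Ms4a4d*. *Nlrp3*, the sensor of an inflammasome (chromosome 11, from 59541568 to 59566956), had an RPKM of 4.90 at day 0 and 3.98 at day 5 in shNFIB cells and at most 0.0638 in the other 6 libraries. *Rnf130*, a ubiquitin ligase gene (chromosome 11, from 50025346 to 50104758), had 8.77 and 12.03 in shNFIB cells and at most 1.30 in the others. For both genes the values of the shNFIB pair and of the other libraries did not overlap. The share of all genes kept with such a gap was not counted, so it is not taken as a trait of these genes. *Il6* had 2.69 and 1.56 in shNFIB cells and between 0.0464 and 0.759 elsewhere. *Ms4a4d* had 2.27 and 13.7 in shNFIB cells and also 10.8 in shMLL1 cells at day 5. Outside this set, *Abcb1b*, a drug efflux pump gene, was 30.2 in shNFIB cells at day 5 and between 1.57 and 8.70 in the other 7 libraries. *Snord82* rests on 2 reads at each day in shNFIB cells. The genes of both sets were chosen by these values, so no support is drawn from them.

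**Figure D4:**
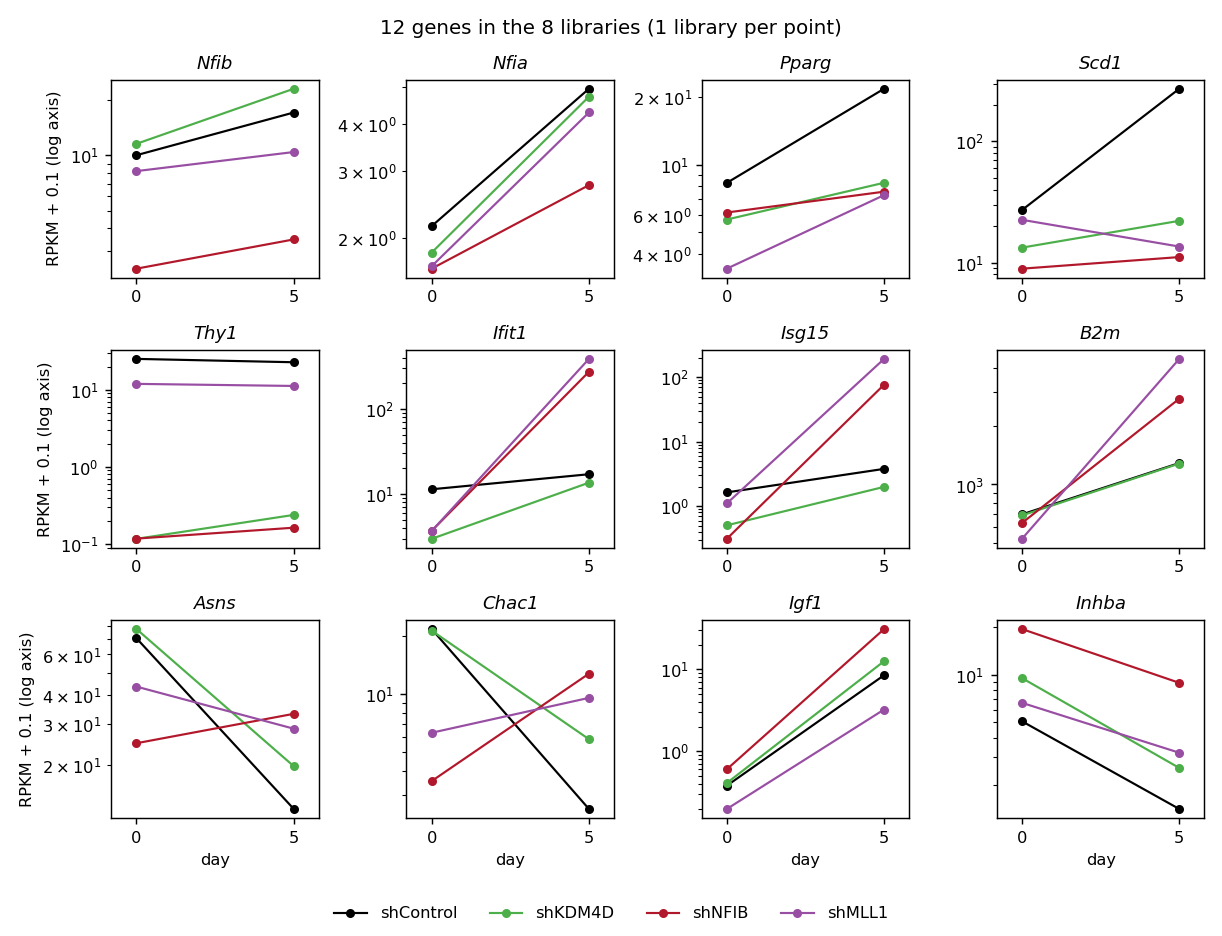
RPKM + 0.1 (y axes, log scale, 1 range per panel) at day 0 and day 5 (x axes) for 12 genes in shControl, shKDM4D, shNFIB and shMLL1 cells, with 1 library per point. In shNFIB cells *Nfib* is lowest at both days, *Thy1* is near 0 together with shKDM4D cells, *Ifit1*, *Isg15* and *B2m* rank between shControl and shMLL1 cells at day 5, and *Asns* and *Chac1* are highest at day 5 after being lowest at day 0.

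The labels name mesenchymal cells, and 9 of 10 mesenchymal markers were measured. Besides *Thy1*, *Ly6a*, which encodes SCA-1, was called and was higher (340 against 136; 90.6 against 172 at day 0, and 927 in shMLL1 cells at day 5). *Pdgfra* had 35.7 against 70.8, just within 2-fold on this scale, *Pdgfrb* 72.2 against 65.8 and *Vim* 1151 against 1366. After median-of-ratios scaling 2 of the 9 were lower. Of 20 markers of blood, endothelial, skeletal muscle and neural cells, 0 passed the filter, and their summed RPKM per list was between 0.177 and 1.01 in the 2 day 5 libraries. *Cdh1* was the 1 epithelial marker of 5 that passed, at 1.15 against 0.430.

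The edges of the selection can be read from the values. Just inside the filter were *Rhbdl3* and *Mok*, with their higher RPKM at 1.00 in shNFIB cells, and just outside were *Dusp8* and *Tvp23bos*, at 0.998 and 0.999. Among genes with an RPKM of at least 10 in 1 of the 2 libraries, *Cav1* and *Ogn* were just beyond 2-fold lower and *Triobp* and *Mettl7a1* just short of it, at log2 ratios between −1.01 and −0.99. *Cacybp* and *Cip2a* were just beyond 2-fold higher, and *Bloc1s2* and *Phgdh* just short of it, at log2 ratios between 0.99 and 1.00.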

How the data were processed

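Total RNA of 8 samples was made into libraries with the SMARTer Stranded RNA-Seq Kit and sequenced on a HiSeq 2500. The authors mapped reads to GRCm38/mm10 with CLC Genomics Workbench 11.0.1 and deposited 1 table per sample of RPKM values, which scale the reads of a gene to its exon length and to the mapped reads of its library. RPKM depends on the exon model, and since all genes of a library share the total, very abundant genes depress the rest. The methods describe quantile normalization, which was run here as an alternative.

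Tables were joined on the gene symbol. Genes with RPKM over 1 in at least 1 of the shNFIB and shControl day 5 libraries were kept, and log2 of the (RPKM + 0.1) ratio beyond 1 was called. The 0.1 understates ratios of weakly expressed genes. Whole reads were recovered from the RPKM steps with the union of GENCODE M21 exons: 96.2% to 96.5% of values between 1 and 1000 reads lay within 0.02 of a whole number. They gave exact (Clopper-Pearson) 95% intervals of the ratio, conditional on the summed reads, and a floor of 3 reads. There is 1 library a side, so no test was run. The script was tested on simulated data.

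Members of 47 gene lists, the lists themselves and the thresholds were chosen with earlier results of these data known. Genes were named from the following sets, and not every member of each set is given. The first set was *Nfib* and genes of the study's expression experiments. Next came the 15 largest falls and 15 largest rises of log2 of the (RPKM + 1) ratio. These were taken among genes with an RPKM of at least 10, without Gm or Rik symbols. Each list gave up to 4 members with the largest ratio and its most abundant member. The last set was the genes next to the 2-fold limit. Other genes were named after their values were seen, to complete a list, pathway or both-day set. *Ddit3*, *Atp5o* and *Aldoa* are not analysed here, and *Ctgf* and *Cyr61* stand under these older symbols.

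Promoters came from the RefSeq table of GRCm38.p6 (32851 promoters of 27025 genes). Of the genes kept, 10999 had a gene model and 8568 a promoter. Alternatives were pseudocounts of 0.01 and 1, other filters, quantile and median-of-ratios scaling, a restriction to protein coding genes, no Gm or Rik symbols, a limit of 4-fold, a counting interval that leaves out 1, the difference of the day 5 and day 0 ratios, division of single genes by *Gapdh* and, chosen after seeing the data, centring on the median of each chromosome. Calculations used Python 3.11.15, numpy 2.4.6, pandas 2.3.3, scipy 1.17.1 and matplotlib 3.10.9.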

Additional observations from a re-analysis of the deposited data

Results flagged for a closer look

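The ratio of shNFIB to shControl cells had opposite directions at day 0 and day 5 in 4 gene lists whose median log2 ratio was beyond 0.5 on both days, and in 7 of the genes with the largest rises that were beyond 2-fold on both days. Other lists and genes had opposite signs with smaller values on 1 of the days. With 1 library per condition these differences between the days were not tested. The median log2 ratio at day 5 exceeded that at day 0 by 3.82 in the interferon-stimulated antiviral genes, 1.93 in the interferon-inducible GTPases and MHC class I, 2.07 in the serine, asparagine and one-carbon enzymes and 1.33 in cholesterol synthesis and uptake. For single genes the log2 ratio at day 5 exceeded that at day 0 by 6.73 in *Isg15*, 6.63 in *Usp18*, 5.95 in *Ifi27l2a*, 5.72 in *Ifi44*, 5.62 in *Ifit1*, 5.54 in *Oasl2* and 4.91 in *Bst2*. Most of these sizes are imprecise. The shNFIB reads at day 0 were 3 for *Isg15* and *Usp18*, 9 for *Oasl2*, 10 for *Ifi27l2a*, 11 for *Ifi44*, 32 for *Bst2* and 179 for *Ifit1*. The 0.1 added to the RPKM changed the day 0 log2 ratio of *Usp18* from −4.13 to −2.82.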

How the results depend on the processing

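The counts of genes lower and higher at day 5 (581 and 511), and of those already lower or higher at day 0 (184 and 104), moved by more than 1.5 times under 5 alternatives. They were 360 and 267 (61 and 42) with a pseudocount of 1, 324 and 316 (91 and 50) with an RPKM over 1 in both libraries, and 234 and 198 (63 and 33) with a mean RPKM over 5. They were 1226 and 1163 (277 and 226) with no filter on RPKM and 198 and 100 (41 and 19) with a limit of 4-fold. Stricter filters and limits test fewer genes or admit smaller sets by construction. The other alternatives kept the counts within 1.5 times. The median log2 ratio over all genes was 0.09, and median-of-ratios scaling, which centres it by construction, gave a value just below 0. The share of lower genes among the calls was 53.2%, and the limit of 4-fold gave 66.4%. Median-of-ratios scaling gave 668 lower and 410 higher genes (62.0% lower), and the difference of the day 5 and day 0 ratios gave 451 and 581 (43.7% lower). Centring on chromosome medians gave 623 and 410 (60.3% lower). The cause of these shifts was not tested. Counts of reads limit genes such as *Kdm4d*, *Cox8b* and *Cox7a1*, and variation between cultures or clones is not measured. No paired analysis was possible because each condition has 1 library and the result comes from no test.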

Other observations

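Median log2 ratios of shNFIB to shControl cells varied by chromosome, over genes with an RPKM above 1 in the 4 libraries of both cell lines. They were −0.28 at day 0 and −0.17 at day 5 for chromosome 15, and −0.23 and −0.13 for chromosome 4, which holds *Nfib*. Against shKDM4D cells the medians of chromosome 15 were −0.35 and −0.28, and against shMLL1 cells −0.33 and −0.31. Those of chromosome 4 were −0.24 and −0.15, and −0.19 and −0.26. Chromosome 12 had 0.24 and 0.24 against shControl cells, chromosome 9 had 0.23 and 0.24, and chromosome 16 had 0.24 and 0.26. Chromosome 19 had 0.16 and 0.28, chromosome 14 had 0.14 and 0.23, and the X chromosome had 0.20 and 0.24. Over the genes of all chromosomes, the medians against shControl cells were 0.04 at day 0 and 0.10 at day 5.

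Among the 12 genes lower at day 5 and higher at day 0 were *Ctla2a* (RPKM 33.4 in shNFIB and 138 in shControl cells after induction, 5.79 and 2.35 before) and *Apoe*, the gene of apolipoprotein E (8.18 and 31.7 after, 0.601 and 0.246 before). They were chosen after their values were seen.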
